A study of Mus musculus with 6 samples.

Results

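The genes described here are Akr1c18, Moxd1, Tmlhe, Slc12a2, Pcsk1 and Fgl2, which were picked because their levels differed between invariant natural killer T (iNKT) cells of PLZF_ON and WT mice. Each was taken from the rows of the array whose only annotated gene symbol is that gene, which gave 1 row per gene and 6 rows in all, out of 23521 rows with 1 symbol and 41345 deposited rows. A further row annotated to Tmlhe together with a second symbol was left out. Of the genes, 4 (Akr1c18, Moxd1, Tmlhe and Pcsk1) encode enzymes or an enzyme-like protein, Slc12a2 encodes a membrane transporter and Fgl2 a fibrinogen-like protein. Both groups are labelled as iNKT cells of mice, WT as controls and PLZF_ON as cells of mice that express a PLZF protein held in the acetylated state. There were 3 arrays per group, of which replicates 1 and 2 (4 arrays) are those the study names as analysed. How the PLZF_ON allele was made, the age and sex of the mice, the organ, and whether replicates were separate animals are not stated by the labels, so the spread between arrays may be technical. Values are log2 expression after RMA, a procedure that brings all arrays to a common distribution. Because the genes were chosen on the difference between the groups, that difference is given below as a description with its error, and the counts of limma calls among the genes are read as no evidence for it.

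PLZF, the product of Zbtb16, is a zinc finger transcription factor on which the effector program of iNKT cells depends, and acetylation is a modification that alters how it acts on its target genes. The genes here belong to unrelated branches of metabolism and secretion. Akr1c18 is the 20-alpha-hydroxysteroid dehydrogenase of mice, which turns progesterone into a less active form, is best known from the ovary, and was used long ago as an enzyme marker of mouse T cells that respond to interleukin-3. Moxd1 resembles the copper-dependent monooxygenase that makes noradrenaline. Tmlhe carries out the first step of carnitine synthesis in mitochondria, Slc12a2 (NKCC1) brings sodium, potassium and chloride into the cell, Pcsk1 cleaves prohormones in secretory granules, and Fgl2 is a membrane-bound prothrombinase in macrophages and a secreted immunosuppressive protein of regulatory T cells.

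Promoter sequences from the RefSeq promoter table are shown for 4 of the 6 genes. These are the 2 with the largest increase and the 2 that were lower. Those of Tmlhe and Slc12a2, which were also higher in PLZF_ON over the 4 arrays, are not shown. The 250 bases before the annotated start are given 5′ to 3′ on the gene's own strand, in build GRCm38.p6, with motif matches in capitals.
Akr1c18 (chr13:4150647-4150896, minus strand): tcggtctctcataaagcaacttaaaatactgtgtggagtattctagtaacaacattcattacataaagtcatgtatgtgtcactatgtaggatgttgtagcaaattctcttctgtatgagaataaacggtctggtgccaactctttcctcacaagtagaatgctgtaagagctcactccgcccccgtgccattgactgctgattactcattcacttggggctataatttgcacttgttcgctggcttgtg
Moxd1 (chr10:24223267-24223516, plus strand): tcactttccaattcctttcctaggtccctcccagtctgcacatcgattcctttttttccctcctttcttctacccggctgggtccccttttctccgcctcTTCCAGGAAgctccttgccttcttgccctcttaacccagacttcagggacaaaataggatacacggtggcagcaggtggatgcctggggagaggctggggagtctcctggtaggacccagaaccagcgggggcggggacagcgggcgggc
Pcsk1 (chr13:75089607-75089856, plus strand): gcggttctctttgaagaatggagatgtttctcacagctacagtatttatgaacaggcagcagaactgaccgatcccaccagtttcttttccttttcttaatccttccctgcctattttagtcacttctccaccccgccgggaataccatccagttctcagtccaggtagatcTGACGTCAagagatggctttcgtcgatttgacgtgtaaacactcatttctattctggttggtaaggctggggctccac
Fgl2 (chr5:21372423-21372672, plus strand): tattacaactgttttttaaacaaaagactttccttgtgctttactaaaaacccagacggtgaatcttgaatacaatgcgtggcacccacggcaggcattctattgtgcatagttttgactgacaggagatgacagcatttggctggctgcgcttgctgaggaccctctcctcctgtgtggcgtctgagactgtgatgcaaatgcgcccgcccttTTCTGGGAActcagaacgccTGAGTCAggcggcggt
Both strands were searched for 6 motifs. These were the TATA box, written TATAAA, the Runx motif, written TGTGGT, and the motif of GATA factors, written AGATAA. Further motifs were that of STAT factors, TTCNNNGAA, that of the AP-1 family, TGANTCA, and the cyclic AMP response element, which reads TGACGTCA. No 2 matches overlapped. The Pcsk1 promoter held TGACGTCA, starting 78 bases before the start, a motif present in 1.55% of 32851 promoter windows of the same length. The Fgl2 promoter held TGAGTCA, an AP-1 motif found in 6.75% of windows, starting 16 bases before the start, and TTCTGGGAA, a STAT motif found in 7.02% of windows, starting 36 bases before it. A STAT motif, TTCCAGGAA, also stood 150 bases before the start of Moxd1, and the Akr1c18 window held none of the 6 motifs. The Akr1c18 window was also the poorest in G and C of the 4, at 41.6% against a median of 52.4% over all windows, while that of Moxd1 was the richest, at 58.4%.

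The array carries no detection flag, so the 1108 rows of olfactory receptors, which T cells are not known to use, served as the background. Outside PLZF_ON replicate 3 their 95th percentile was 5.05 to 5.27 on the log2 scale and their median 2.96 to 3.09. On PLZF_ON replicate 3 both were higher, at 5.64 and 3.43. All 6 genes had groups that did not overlap over the 4 arrays, and 5 of 6 over all 6 arrays, against 38.2% and 11.8% of all tested rows. In limma, which estimates the spread of each row with help from all rows, 5 of the 6 passed an adjusted p of 0.05 over the 4 arrays and 3 passed over 6 arrays, against 0.17% and 0.0935% of rows. Over the 4 arrays 3 were called higher and 2 lower, where 0.102% and 0.068% of rows were. Leaving out a PLZF_ON array of the 4 leaves 1 array in that group, so calls among the 6 are not read from such fits. The log2 differences they gave are listed further below. Of the 6-array calls (Akr1c18, Tmlhe and Fgl2), 0 held without any 1 of the arrays other than PLZF_ON replicate 3. In those fits only 0 to 6 of all 23521 rows passed, so the loss is not particular to these genes. With limma fitted anew to all deposited rows, 0 of the 6 passed over the 4 arrays, and 0 of all 41345 rows did. The smallest limma adjusted p there was 0.252, and 3042 rows had an unadjusted p under 0.05. That fit changes the estimated spread of each row as well as the number of rows adjusted for. These counts restate how the genes were chosen.

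Akr1c18 had the largest absolute difference of all 23521 rows over the 4 arrays. On the log2 scale WT replicates 1, 2 and 3 stood at 3.73, 4.73 and 4.85, and those of PLZF_ON at 8.72, 8.67 and 7.59. All PLZF_ON arrays were above all WT arrays, and the closest pair was still 2.74 apart. Over the 4 arrays the means were 4.23 ± 0.71 (SD, n = 2) in WT and 8.70 ± 0.04 (SD, n = 2) in PLZF_ON, a log2 difference of 4.47 (SE 0.31). The WT level was below the olfactory 95th percentile on 3 of 3 arrays and exceeded 73.8% to 91.7% of olfactory rows, so a signal above background was not established. For a floor, values on the 4 arrays below 5.08, the 95th percentile of olfactory row means over them, were raised to it. Akr1c18 was then at least 12.2-fold higher in PLZF_ON over the 4 arrays, and the same floor served for the other genes. Between the replicate 3 arrays alone, with no floor, Akr1c18 was 6.69-fold higher. Over 6 arrays the difference was 3.89 (SE 0.39).

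The relatives of Akr1c18 were examined next. Of 13 other aldo-keto reductases measured, 0 passed limma over all rows in either direction and 1 had an unadjusted p under 0.05, with a median log2 difference of 0.01 (range -0.26 to 0.60) against -0.004 over all genes. The 2 flanking genes of the cluster on chromosome 13, Akr1c14 and Akr1c19, were near the olfactory median on the 4 arrays, at 3.15 and 3.12 in WT and 3.17 and 2.91 in PLZF_ON. Akr1c12, another hydroxysteroid dehydrogenase, had the smallest p in the family, with a difference of 0.60 (SE 0.16, limma adjusted p = 0.288) from 4.18 to 4.79, both below the olfactory 95th percentile. Akr1b10 had a difference of -0.26 and Akr7a5 one of 0.23, and neither passed. These genes resemble each other in sequence, and whether transcripts of one reach the row of another was not tested.

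Enzymes that make steroids and the receptors that sense them were examined beside it. Of 28 measured, 0 passed limma across the whole table, while 3 reached an unadjusted p below 0.05, with a median difference of 0.01. Hsd11b1, which regenerates active glucocorticoid, was at 7.71 in WT and 6.88 in PLZF_ON over the 4 arrays, a difference of -0.83 (SE 0.33, limma adjusted p = 0.519). The progesterone-binding membrane protein Pgrmc1 had a difference of 0.61 (SE 0.20, limma adjusted p = 0.42), and the membrane progestin receptor Paqr7 one of 0.37. For the interleukin-3 receptor and its Stat5 pathway, 0 of 8 passed and 1 had an unadjusted p under 0.05, and the median difference was 0.07. Stat5b, the transcription factor at its end, had a difference of 0.61 (SE 0.14, limma adjusted p = 0.224), its target Cish one of -0.36, and the receptor chain Il3ra one of -0.28.

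Moxd1 was low in WT and high in 2 of the 3 PLZF_ON arrays. On the log2 scale WT replicates 1, 2 and 3 stood at 4.34, 3.96 and 4.05, and those of PLZF_ON at 8.0, 8.70 and 4.92. PLZF_ON replicate 3 stood 3.43 below the mean of the other PLZF_ON arrays and only 0.58 above the highest WT array. Over the 4 arrays the difference was 4.20 (SE 0.26), from 4.15 ± 0.27 to 8.35 ± 0.49 (SD, n = 2 each). WT lay below the olfactory 95th percentile on 3 of 3 arrays, PLZF_ON replicate 3 did too, and with values raised to that percentile Moxd1 was at least 9.62-fold higher over the 4 arrays. Over 6 arrays the difference was 3.09 with an SE of 0.85. Among 10 related copper monooxygenases and catecholamine enzymes, 0 passed limma over all rows, 0 had an unadjusted p under 0.05, and the median difference was -0.05. The copper pump Atp7a, which loads such enzymes, came closest with a difference of 0.54 (SE 0.23, limma adjusted p = 0.551), followed by Cyb561, which supplies electrons to monooxygenases in granules, with 0.25, and Ddc, which makes dopamine, with 0.24.

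Tmlhe had the smallest difference of the 6 genes and the least spread within PLZF_ON over 6 arrays (SD 0.09, n = 3). On the log2 scale WT replicates 1, 2 and 3 stood at 5.51, 5.34 and 5.11, and those of PLZF_ON at 6.67, 6.65 and 6.82. The groups were 1.14 apart at their closest arrays, and PLZF_ON replicate 3 was the highest of all. The difference was 1.24 (SE 0.14), or 2.35-fold, over the 4 arrays and 1.39 (SE 0.16) over 6 arrays. WT lay within 0.35 of the olfactory 95th percentile, above it on 2 of 3 arrays, and PLZF_ON above it on 3 of 3. Of 17 other genes of carnitine synthesis, transport and use, 0 passed limma across the whole table, while 2 reached an unadjusted p below 0.05, with a median difference of 0.02. Slc25a20, which carries acylcarnitines into mitochondria, had a difference of 0.43 (SE 0.17, limma adjusted p = 0.505), from 5.52 to 5.95. Crot, the peroxisomal carnitine acyltransferase, had one of -0.42 (SE 0.16, limma adjusted p = 0.474), and the plasma membrane carnitine transporter Slc22a5 one of -0.40.

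Slc12a2 was above the olfactory 95th percentile on every array of both groups. On the log2 scale WT replicates 1, 2 and 3 stood at 5.79, 6.55 and 6.46, and those of PLZF_ON at 8.49, 8.70 and 6.49. PLZF_ON replicates 1 and 2 were far above all WT arrays, and PLZF_ON replicate 3 lay inside the WT range, so the groups overlapped over 6 arrays. The difference was 2.43 (SE 0.26), or 5.37-fold, over the 4 arrays and 1.63 (SE 0.55) over 6, and between the replicate 3 arrays alone it was 0.03. Of 17 other genes of cation-chloride cotransport and volume control, 0 passed limma across the whole table, while 1 reached an unadjusted p below 0.05, with a median difference of 0.13. That gene was Atp1b1, the beta subunit of the sodium pump whose gradient drives this transport. Atp1b1 was at 8.03, 8.30 and 7.94 in WT and 9.48, 9.41 and 8.91 in PLZF_ON replicates 1 to 3, with no overlap. Its difference over the 4 arrays was 1.28 (SE 0.15, limma adjusted p = 0.0609). It passed without WT replicate 2 (limma adjusted p = 0.0448) and when limma's prior was allowed to follow the mean level (limma adjusted p = 0.0384), and over 6 arrays the limma adjusted p was 0.14. With the 6 arrays it passed without PLZF_ON replicate 3 (limma adjusted p = 0.0229) and with array weights (limma adjusted p = 0.00566). The other beta subunit measured, Atp1b3, had a difference of 0.30 and the kinase scaffold Cab39 one of -0.21.

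**Figure D1:**
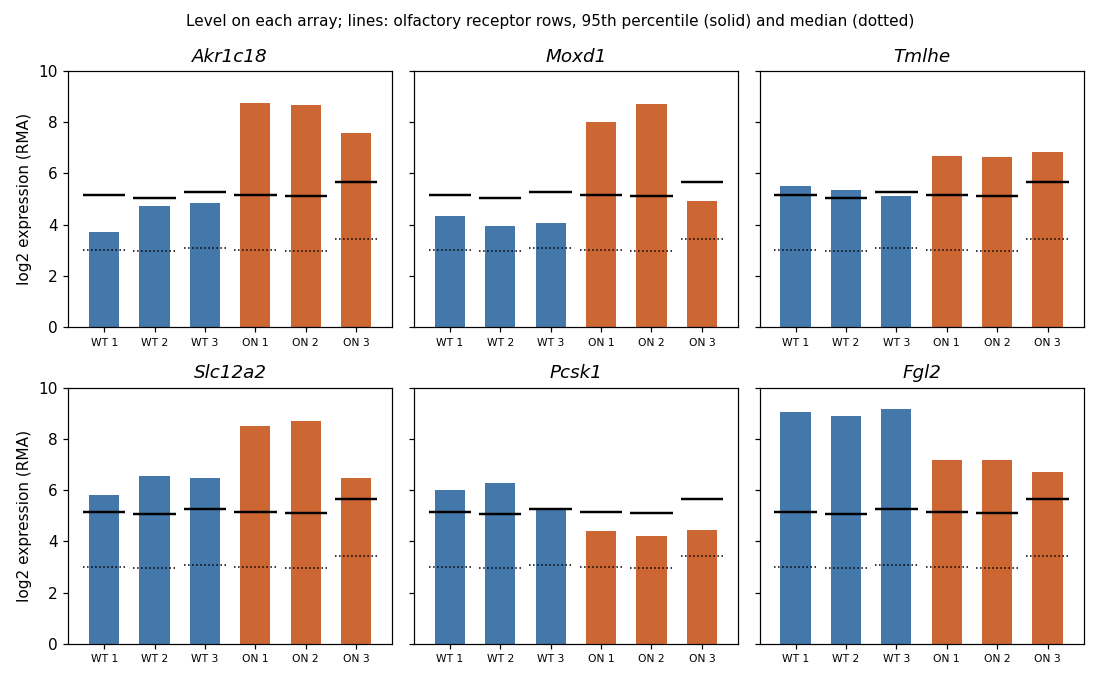
Log2 expression (RMA) of each gene on each array (bars; blue WT, orange PLZF_ON, labelled ON), with the 95th percentile (solid line) and median (dotted line) of 1108 olfactory receptor rows on the same array. The groups overlapped for Slc12a2, which was at 6.49 in PLZF_ON replicate 3, inside the WT range, and Moxd1 was at 4.92 in that array.

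Pcsk1 was above the olfactory 95th percentile on 2 of 3 WT arrays and on 0 of 3 PLZF_ON arrays. On the log2 scale WT replicates 1, 2 and 3 stood at 6.01, 6.28 and 5.25, and those of PLZF_ON at 4.40, 4.20 and 4.46. WT replicate 3 was nearest to PLZF_ON, and the groups were 0.79 apart at their closest. Over the 4 arrays the difference was -1.85 (SE 0.16), and over 6 arrays -1.49 (SE 0.27). With values below that percentile raised to it, Pcsk1 was at least 2.08-fold lower over the 4 arrays. Of 16 other proprotein convertases and prohormone processing genes, 0 passed limma across the whole table, while 3 reached an unadjusted p below 0.05, with a median difference of -0.05. Cpd, a carboxypeptidase that trims the products of convertases, had a difference of -1.06 (SE 0.21, limma adjusted p = 0.168), with 5.91 and 6.41 in WT and 4.95 and 5.26 in PLZF_ON replicates 1 and 2. WT replicate 3 was at 4.56 for Cpd, below both of these PLZF_ON arrays. Furin, the convertase that T cells use widely, had a difference of -0.39 (SE 0.14, limma adjusted p = 0.47), and the Golgi protease Mbtps1 one of 0.38.

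Fgl2 was above background on every array and lower in PLZF_ON, with the least spread within WT of the 6 genes over 6 arrays (SD 0.13, n = 3). On the log2 scale WT replicates 1, 2 and 3 stood at 9.03, 8.89 and 9.15, and those of PLZF_ON at 7.18, 7.19 and 6.70. Every PLZF_ON array was at least 1.70 below every WT array. The difference was -1.77 (SE 0.13), 3.42-fold lower in PLZF_ON, over the 4 arrays and -2.00 (SE 0.19) over 6 arrays. Among 16 other fibrinogen-related proteins and receptors, 0 passed limma across the whole table, while 3 reached an unadjusted p below 0.05, with a median difference of -0.07. Angptl4, an inhibitor of lipoprotein lipase, had a difference of 0.56 (SE 0.16, limma adjusted p = 0.345), Fibcd1, which in humans binds acetylated molecules, one of -0.44, and the secreted Angptl1 one of -0.65. Fcgr2b, the inhibitory antibody receptor to which secreted Fgl2 binds, had a difference of -0.30 (limma adjusted p = 0.687). Fgl2 overlaps Ccdc146 in the gene table, whose level was 3.32 in WT and 3.29 in PLZF_ON over the 4 arrays, near the olfactory median.

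**Figure D2:**
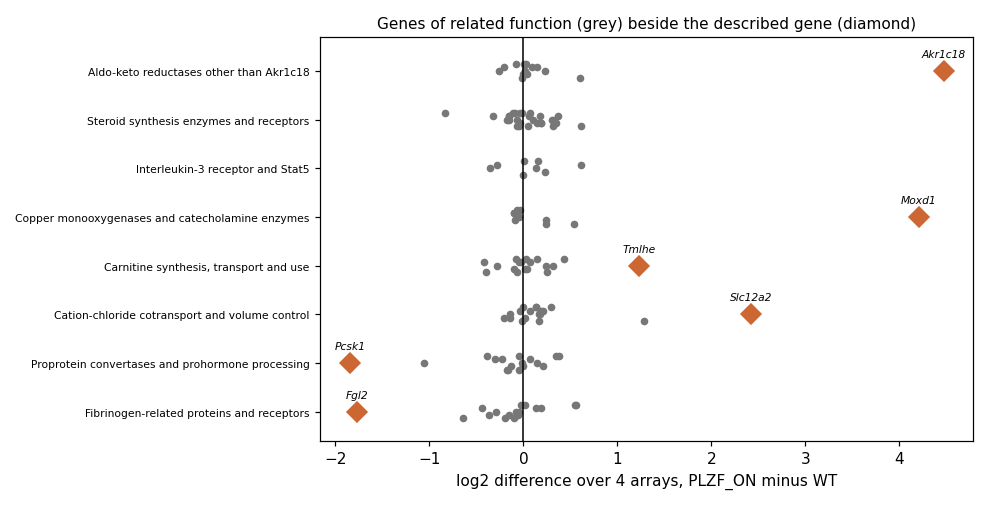
Log2 difference over the 4 arrays (PLZF_ON minus WT, horizontal axis) of each described gene (orange diamond) and of the genes of related function (grey points, 1 per gene) in 8 lists. The described genes lie outside the range of their list, and the related genes with a difference beyond 1 in size are Atp1b1 at 1.28 and Cpd at -1.06.

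Over the 8 lists together, 0 of 125 measured genes passed limma over all rows, where 0.162% of all genes passed. An unadjusted p under 0.05 was reached by 14 of them (11.2%), against 9.19% of all genes. In these bulk samples fewer cells that carry a transcript and less transcript per cell cannot be told apart.

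The genes beside them on the chromosome were measured too, apart from those of Tmlhe, whose place in the gene table could not be tied to the rest of chromosome X. Of the 10 nearest measured genes on either side of the other 5, 0 passed limma and 3 had an unadjusted p under 0.05, against 0.162% and 9.19% of all genes. Fam185a, next to Fgl2 on chromosome 5, was lower in all PLZF_ON arrays (6.33, 5.93 and 5.12) than in all WT arrays (6.92, 6.96 and 6.41), with a 4-array difference of -0.81 (SE 0.17, limma adjusted p = 0.187). Stx7, a syntaxin of endosomes next to Moxd1, had a difference of 0.55 (limma adjusted p = 0.449), and Fbn2, a fibrillin next to Slc12a2, one of 0.50 (limma adjusted p = 0.422).

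Genes with a like course were sought by the root mean square difference between profiles over the 6 arrays, each centred on its own mean, among 17442 other genes. Nearest to Akr1c18 were Nrgn (0.66 on the log2 scale), Vsig2 (0.75) and Tnfsf8 (0.84), and nearest to Moxd1 were Irak3 (0.61), Vsig2 (0.69) and Slc15a1 (0.86). Slc12a2 was closest to Spa17 (0.25), the ATP-gated channel P2rx7 (0.25) and Slc15a1 (0.30). P2rx7 was at 6.28, 7.42 and 7.03 in WT and 9.04, 9.14 and 7.64 in PLZF_ON replicates 1 to 3, with a 4-array difference of 2.24 (SE 0.35, limma adjusted p = 0.102). Tmlhe was closest to Tctex1d2 (0.21), the coreceptor gene Cd4 (0.22) and the p38 kinase gene Mapk11 (0.22). Cd4 was at 8.01, 7.80 and 7.56 in WT and 9.46, 8.90 and 8.91 in PLZF_ON, a 4-array difference of 1.28 (SE 0.21, limma adjusted p = 0.115). Pcsk1 was closest to the gamma chain segment Trgv5 (0.21), Eya2 (0.28) and the lymphotoxin gene Ltb (0.28). Trgv5 was at 6.94, 6.98 and 5.75 in WT and 4.66, 4.66 and 4.94 in PLZF_ON. Its 4-array difference was -2.30 (SE 0.13, limma adjusted p = 0.00953), and over 6 arrays it was -1.80 (SE 0.33, limma adjusted p = 0.157). Ltb had a 4-array difference of -1.37 (SE 0.23, limma adjusted p = 0.115) and Eya2, a transcriptional coactivator, one of -1.38 (SE 0.21, limma adjusted p = 0.0986). Fgl2 was closest to F2r (0.16), Cd226 (0.18) and B4galnt4 (0.23). F2r, a receptor activated by thrombin, was at 10.06, 9.75 and 9.89 in WT and 8.05, 8.37 and 7.41 in PLZF_ON. It fell by 1.69 on the log2 scale over the 4 arrays (SE 0.18, limma adjusted p = 0.0456). Over 6 arrays F2r had a difference of -1.95 (SE 0.25, limma adjusted p = 0.0564) and did not pass. Without PLZF_ON replicate 2 it did not pass, as 0 rows did in limma. Nrgn, Vsig2, Tnfsf8, Irak3, Slc15a1, Spa17 and Cd226 also passed limma over the 4 arrays, and Nrgn, Cd226 and Mapk11 passed over 6. These orders rest on 6 arrays and favour genes with a change of like size. The described genes were chosen on the difference between the groups, so a small p in genes picked for likeness to them is no further evidence. Between the described genes, Pcsk1 and Fgl2 differed by 0.51, Tmlhe and Slc12a2 by 0.84, Moxd1 and Slc12a2 by 0.94, and Akr1c18 and Moxd1 by 1.01.

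The replicate 3 arrays were not among those the study analysed, and the 6 genes differed there. Taking the WT mean of replicates 1 and 2 as 0% and the PLZF_ON mean as 100%, PLZF_ON replicate 3 lay at 127% for Fgl2, 113% for Tmlhe, 91.5% for Pcsk1 and 75.1% for Akr1c18. For Moxd1 it lay at 18.3% and for Slc12a2 at 13.2%. On the same scale WT replicate 3 lay between -25.3% (Tmlhe) and 13.8% (Akr1c18) for 5 genes and at 48.6% for Pcsk1. Of the rows that passed limma over the 4 arrays, 24 were higher and 16 lower. Among the higher rows PLZF_ON replicate 3 had a median of 40.0%, with 10 above 50%, and among the lower rows a median of 99.6%, with 16 above 50%.

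**Figure D3:**
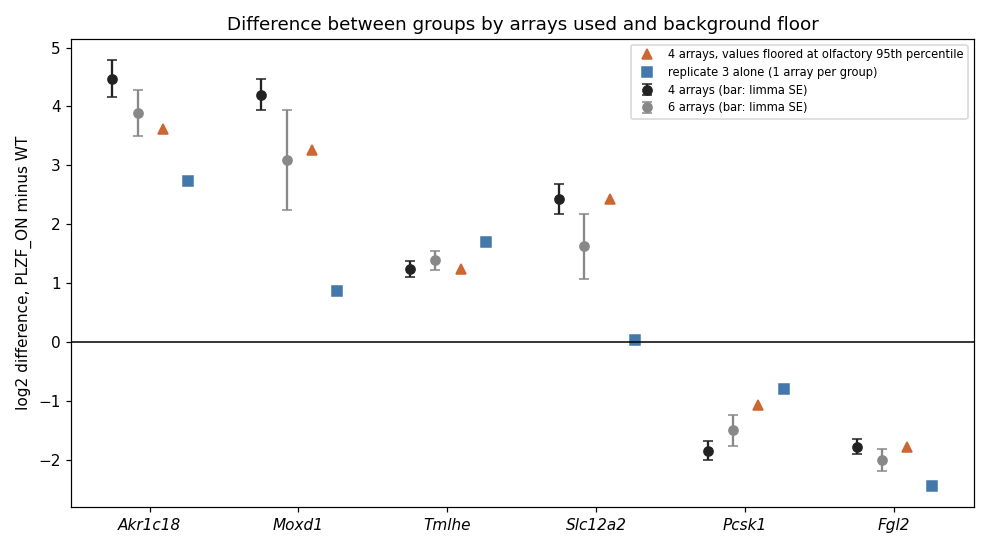
Log2 difference of PLZF_ON minus WT for each gene (vertical axis) from the 4 arrays (black circles, bars limma SE), from all 6 arrays (grey circles, bars limma SE), from the 4 arrays with values raised to the olfactory 95th percentile (orange triangles) and between the replicate 3 arrays alone (blue squares). The replicate 3 difference was 0.03 for Slc12a2 and 0.87 for Moxd1, against 2.74 for Akr1c18 and -2.44 for Fgl2.

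PLZF_ON replicate 3 also stood apart in other ways. Its correlation with the other arrays across rows was 0.895 to 0.898, against 0.957 to 0.973 among those, and the SD over rows was 1.79, against 1.97 to 2.01. The 12 measured T cell and iNKT markers, Zbtb16 and the CD3 chains among them, were above the olfactory 95th percentile on every array. Over the 4 arrays 0 of them passed limma. An unadjusted p under 0.05 was reached by 4 that were higher and 3 that were lower, against 9.19% of all genes. Slamf6 (1.34), Cd4 (1.28), Cd5 (0.77) and Zbtb16 (0.51) were higher, and Cd44 (-1.06), Il2rb (-0.98) and Zap70 (-0.37) lower. Whether the groups differed in the make-up of their iNKT cells was not tested. The summed level of the 12 markers was 13.6 to 13.8 on the log2 scale in WT, 13.8 and 13.7 in PLZF_ON replicates 1 and 2, and 13.1 in PLZF_ON replicate 3. The summed level of 7 neutrophil markers was 8.79 in that array and 6.74 to 6.98 in the others, with the granule gene S100a8 at 7.29 against at most 3.09. That of 5 markers of double-positive thymocytes was 9.14 against 7.05 to 7.26, with the terminal transferase Dntt at 7.19 against at most 4.10 and Cd8a at 6.55 against at most 4.73. On the 4 arrays 0 of 7 neutrophil markers and 1 or 2 of 5 thymocyte markers exceeded the olfactory 95th percentile. On PLZF_ON replicate 3, 2 of 7 neutrophil markers, S100a8 and S100a9, and 4 of 5 thymocyte markers did. The neutrophil marker Ly6g was at 4.47 there, below WT replicate 3 at 4.67. PLZF_ON replicate 3 had the highest sum for 10 of the 12 marker lists, and for the 8 others of these it exceeded the next array by 0.11 to 0.44. Within the macrophage list Lyz2 was at 6.58 on PLZF_ON replicate 3, against at most 4.48 on the others. Cd68 was at 5.32 on PLZF_ON replicate 3, against at least 6.45 on the others. The olfactory background was also highest on that array, with a median of 3.43 against 2.96 to 3.09. Whether these 8 lists rose by more than the background was not tested. The part of the neutrophil, thymocyte and macrophage transcripts in the replicate 3 values of the 6 genes was not tested.

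Markers of cells that are known for these genes were set beside them. The 8 macrophage markers, relevant to Fgl2, summed to 8.05 to 8.10 in WT and to 7.92, 8.15 and 8.32 in PLZF_ON replicates 1 to 3, and 2 or 3 of them were above the olfactory 95th percentile on each array. Lyz2 was among these only on PLZF_ON replicate 3, and Cd68 only on the other arrays. The 6 markers of steroid-producing cells summed to 6.97 to 7.06 in WT and 6.93 to 7.36 in PLZF_ON, and 1 was above that percentile on every array other than PLZF_ON replicate 3, where it was 0. The 6 neuroendocrine markers summed to 6.85 to 7.11 and 6.89 to 7.48, with 1 or 2 above it. The 7 fibroblast and endothelial markers summed to 8.6 to 9.0 in WT and 9.1 to 9.8 in PLZF_ON, with no overlap, and 1 or 2 of them were above the percentile. Of these, Pecam1, which lymphocytes also carry, was at 8.02 to 8.64 in WT and 8.67 to 9.56 in PLZF_ON, while Cdh5 and Kdr were at 4.54 or lower on all arrays. Of 6 B cell markers, 0 exceeded the percentile on any array.

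**Figure D4:**
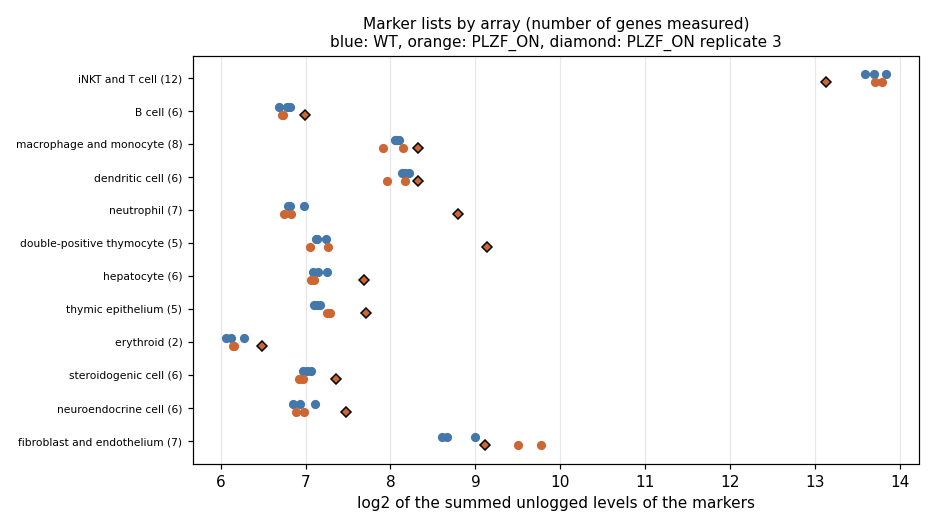
Log2 of the summed unlogged levels (horizontal axis) of the markers of 12 cell types, with the number of genes measured in brackets, on each WT array (blue) and PLZF_ON array (orange, diamond for replicate 3). PLZF_ON replicate 3 stands to the right of the other arrays for 10 of the 12 lists, farthest for neutrophil (8.79) and double-positive thymocyte markers (9.14), and to the left for T cell markers (13.1). Its olfactory background was also the highest, with a median of 3.43.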

How the data were processed

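The deposited table holds log2 expression values of 6 arrays, 1 row per array feature, made by the authors with RMA, per the submitters' processing notes, without a version. The labels' protocols name biotin-labelled targets for Affymetrix whole-transcript arrays and RNA from frozen tissue. The genome build and annotation the authors used were not given in the labels or the table. The log2 values were taken unaltered.

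Gene symbols came from the platform annotation, in which 23521 of 41345 rows have 1 symbol, 1814 have several and 16010 are not listed. A gene of a list was represented by its brightest row over 6 arrays. Groups came from the sample titles. PLZF_ON was compared with WT over the 4 arrays the study names and over all 6, in R 4.3.3 by limma 3.58.1 (lmFit, eBayes, two-sided, with no term beside genotype) and Benjamini-Hochberg adjustment over all rows with 1 symbol. The script was checked on simulated data. Folds are on the log2 scale of RMA, which compresses changes of dim rows. The number of arrays limits the precision.

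The 6 genes, the 8 pathway lists and the 12 marker lists were chosen with earlier results of these data known. Named by rule were the 6 genes, in each list up to 3 genes with the smallest p, the 3 genes nearest in profile and the nearest measured neighbours in the GRCm38.p6 gene table. Fcgr2b and the single marker genes were added for their roles or levels after values were seen. Alternatives were leaving out each array, the replicate number as a block, all 6 arrays, quantile normalization again, median centring, a variance trend, array weights, brighter rows alone, all deposited rows, floors at the olfactory level, unlogged means and averaging all rows per gene. Promoters were taken from RefSeq. Figures were drawn with matplotlib 3.10.9.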

Additional observations from a re-analysis of the deposited data

How the results depend on the processing

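Of 36 values of the 6 genes under other normalization, floors, averaging or all 6 arrays, 27 moved by less than the SD between replicates, 9 by more, and 0 changed sign. All 6 genes moved by more with all 6 arrays. The 27 include values that could not move. A floor at the olfactory median lay below every value of the 6 genes. The floor at the olfactory 95th percentile lay below every value of Tmlhe, Slc12a2 and Fgl2 on the 4 arrays. With 2 arrays a group, leaving 1 out cannot move a difference by more than that SD. Leaving out each of the 4 arrays in turn gave log2 differences of 3.97 to 4.97 for Akr1c18, 3.86 to 4.55 for Moxd1, 1.15 to 1.32 for Tmlhe, 2.05 to 2.80 for Slc12a2, -1.98 to -1.71 for Pcsk1 and -1.84 to -1.70 for Fgl2. With all 6 arrays they were 3.89, 3.09, 1.39, 1.63, -1.49 and -2.00. A floor at the olfactory 95th percentile gave 3.61 for Akr1c18, 3.27 for Moxd1 and -1.06 for Pcsk1, because it raised their dim group. Each gene has 1 row, so the mean of its rows is the same value.

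The count of rows passing limma, 40 over the 4 arrays and 22 over 6, depended on single arrays, and the cause was not tested. Over the 4 arrays it ran from 0 without PLZF_ON replicate 2 (1803 rows at an unadjusted p under 0.05) to 106 without WT replicate 2. It was 22 with all 6 arrays and 0 with all deposited rows (3042 unadjusted). Over 6 arrays it ran from 0 without WT replicate 1, WT replicate 2 or PLZF_ON replicate 2 (852, 960 and 1531 unadjusted) over 1 without WT replicate 3 and 6 without PLZF_ON replicate 1 to 107 without PLZF_ON replicate 3. It was 259 with array weights.

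The labels do not say that replicate numbers pair the arrays. Deviations of same-numbered arrays from their group means correlated across rows at 0.09, 0.25 and 0.24, and PLZF_ON replicate 1 correlated best with WT replicate 2 (0.12). With the replicate block 101 rows passed over the 4 arrays and 30 over 6, and the differences of the 6 genes stayed as they were, as that fit requires. Over 6 arrays Tmlhe no longer passed with the block or with a variance trend, and Akr1c18 and Fgl2 did.

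Of the genes of the pathway lists, over the 4 arrays, by alternatives added after the data were seen, 0 passed apart from 1, Atp1b1, without WT replicate 2 and with a variance trend, so that leaving out an array gave 0 to 1. Over 6 arrays 1, again Atp1b1, passed without PLZF_ON replicate 3 and with array weights.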
